A study of Arabidopsis thaliana with 12 samples.

Results

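H3K4me2 peaks of an atx3/4/5 mutant of Arabidopsis thaliana were compared with those of wild type, peak by peak and gene by gene. Wild-type peaks were kept where a peak of the mutant shared 1 bp or more with them and absent otherwise, and mutant peaks that met no wild-type peak were gained. The 2 lists held 20585 peaks for wild type and 16650 for the mutant, which is 37235 of the 80922 peaks in the 5 deposited lists, and came from 2 of the 12 libraries of the series. The plants were of the Columbia (Col-0) ecotype, and the labels give a mutant of ATX3, ATX4 and ATX5 and a wild type without naming the alleles. Rosette leaves of plants 4 weeks old were used for all libraries. The series also holds H3K4me3 libraries of both genotypes, inputs, 2 RNA-seq libraries of each genotype and an sdg2 mutant that is not used here.

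Histone H3 can carry 1, 2 or 3 methyl groups on lysine 4. In plants the trimethylated form (H3K4me3) sits at the beginnings of transcribed genes, while the dimethylated form (H3K4me2) lies further into the gene body and also over genes that are hardly transcribed. SET-domain methyltransferases of the trithorax type, among them ATX3, ATX4 and ATX5, place these marks. The comparison addresses which peaks and genes carry H3K4me2 when these 3 enzymes are mutated.

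There was 1 ChIP library for each genotype and mark, so no value on peaks has a spread between replicates and no test was made. Intervals are exact 95% intervals and cover counting error only. The ChIP depth is unknown, and a mutant library with fewer reads or weaker enrichment cannot be told apart from less of the mark. RNA levels come from the authors' deposited table, with 1 FPKM value (a level scaled for transcript length and depth) per gene and genotype, and a gene is called where its q is under 0.05 there. Leaf genes were high, with 9250 FPKM for LHCA1 and 2370 for PSBP-1 in wild type in the authors' deposited table. ATX3 was listed at 4.17 FPKM in wild type and 4.38 in the mutant (q = 0.941 in the authors' deposited table). ATX5 was listed at 3.93 and 3.76 FPKM (q = 0.945), and ATX4 at 1.05 and 2.88 (q = 0.0541), in the authors' deposited table. The RNA levels of the mutated genes thus do not separate the genotypes, and the mutant is the library labelled atx3/4/5 throughout. All 3 genes kept H3K4me2 peaks, which covered 61.8% of the ATX3 locus in wild type and 19.6% in the mutant. At ATX5 the covered share was 24.2% in wild type and 43.8% in the mutant, and at ATX4 it was 57.8% and 65.9%.

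The strongest H3K4me2 peaks that were absent in the mutant included those over NCED5, IPT5, PDLP6 and CASP1, and most of these sites lacked H3K4me3 in the mutant as well. Absence is read against a share of 31.5% for all wild-type peaks (the score is the strength the authors' caller gave a peak). In the highest quintile of the wild-type score the share was only 9.28% (382 of 4117). It came to 52.6% when a score of at least 200 was asked of both lists, which also removed mutant peaks under that score. The 15 absent peaks with the highest scores were 786 to 1784 bp wide. Of these 15, 12 overlapped a wild-type H3K4me3 peak, and none of those 12 overlapped an H3K4me3 peak in the mutant. NCED5 encodes a 9-cis-epoxycarotenoid dioxygenase of abscisic acid synthesis, and its absent peak of 1623 bp (TAIR10 chr1:10571269-10572891) covered 76.6% of the locus. IPT5, an isopentenyltransferase of cytokinin synthesis, had an absent peak of 1434 bp (chr5:6362061-6363494) over 85.8% of its locus. At PDLP6, which encodes a plasmodesmata-located protein, the absent peak of 977 bp (chr2:291745-292721) lay over 1 end of the locus. CASP1, which encodes a scaffold protein of the Casparian strip in root endodermis, shares a locus and an absent peak of 1089 bp (chr2:15158505-15159593) with AT2G36090. These 4 peaks had the same score of 3100 in the wild-type list.

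The remainder of the 15 included peaks over ADS1, a MATE-type transporter gene (1784 bp), the ATL-type RING ligase genes ATL43 (1496 bp) and ATL5 (1064 bp), the GATA factor gene GATA12 (1433 bp) and the laccase gene LAC1 (1408 bp). UGT72E2, a glucosyltransferase that acts on monolignols, and AT1G77790 had absent peaks of 1670 and 1186 bp without H3K4me3 in either genotype. The third such peak, of 786 bp, lay over AT3G27416 and AT3G27415. A peak of 1386 bp was absent within the long locus shared by MEE22 and MEE23, while other H3K4me2 over that locus was kept. Of the 18 genes under the 15 peaks, 10 had a wild-type FPKM under 1 in the authors' deposited table. In RNA 1 of the 18 was called lower and 1 higher in the authors' deposited table, which did not test all of the 18. Of all nuclear genes tested there, 5.36% were called lower and 4.93% higher. PDLP6 was lower, with 16.6 FPKM in wild type and 5.75 in the mutant (q = 0.0175 in the authors' deposited table). UGT72E2 was higher, with 0.241 and 2.94 FPKM (q = 0.0284 in the authors' deposited table). NCED5 and IPT5 stood at 0.113 and 0.528 FPKM in wild type and 0.236 and 0.216 in the mutant, and neither was tested in the authors' deposited table.

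H3K4me2 peaks were absent more often where wild type had no H3K4me3. Of 8063 wild-type H3K4me2 peaks without an H3K4me3 overlap, 4187 were absent (51.9%, interval 50.8 to 53.0). Of 12522 peaks that overlapped H3K4me3, 2304 were absent (18.4%, interval 17.7 to 19.1). Since peaks with H3K4me3 also scored higher, the shares were taken within quintiles of the wild-type score. From the lowest quintile to the highest, peaks without H3K4me3 were absent at 70.1%, 55.3%, 39.6%, 33.1% and 27.5%. Peaks with H3K4me3 were absent at 54.9%, 35.9%, 16.0%, 6.31% and 5.42%. The intervals of both kinds of peak were apart in all 5 quintiles. Put the other way, 35.5% of absent peaks and 72.5% of kept peaks overlapped H3K4me3 in wild type. With a score of at least 200 asked of both lists these shares were 63.8% and 90.3%.

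Where a strong H3K4me2 peak was absent, H3K4me3 at the same site was mostly absent too. In the highest score quintile 184 absent H3K4me2 peaks overlapped wild-type H3K4me3, and 139 of them had no H3K4me3 peak in the mutant (75.5%, interval 68.7 to 81.6). Among kept H3K4me2 peaks of that quintile the count was 364 of 3213 (11.3%, interval 10.3 to 12.5). In the lowest quintile the shares were 14.4% for absent and 5.51% for kept H3K4me2 peaks. Between these ends the share for absent peaks was 21.3%, 30.4% and 44.0%. For comparison, 9.84% of all wild-type H3K4me3 peaks were absent in the mutant. CYP78A9 and CYP78A6, P450 genes that promote growth of seeds and fruits, were of this kind, with absent H3K4me2 peaks of 1246 and 1232 bp and H3K4me3 in wild type only. CYP707A1, an abscisic acid 8'-hydroxylase, GA2OX2, a gibberellin 2-oxidase, and the homeobox gene HB27 showed the same combination.

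**Figure D1:**
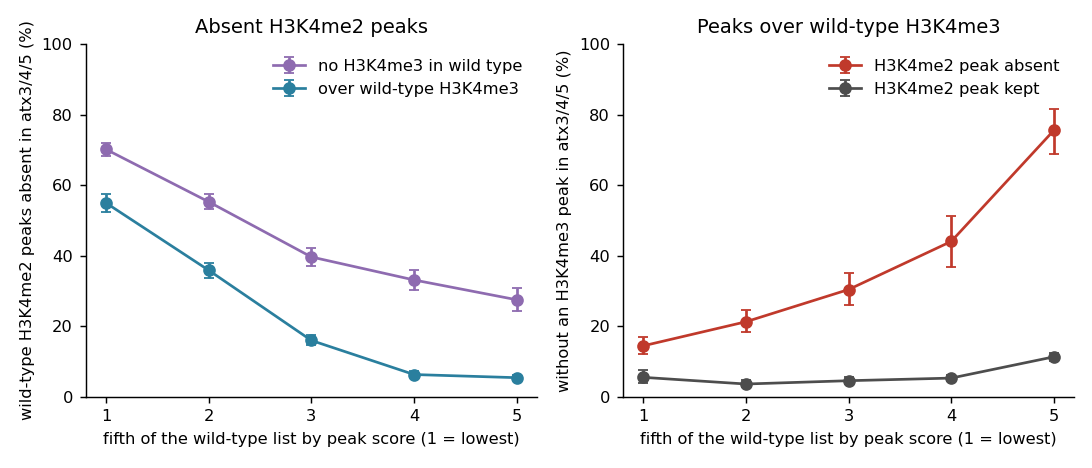
Left, the percent of wild-type H3K4me2 peaks absent in atx3/4/5 (y axis) by score quintile of the wild-type list (x axis), for peaks with and without wild-type H3K4me3. Right, for peaks over wild-type H3K4me3, the percent with no H3K4me3 peak in the mutant, for absent and kept H3K4me2 peaks; bars are exact 95% intervals, and the absent peaks go from 14.4% to 75.5% while the kept peaks are at or under 11.3%.

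Peaks that were kept were narrower in the mutant, and the difference was larger than for H3K4me3 peaks. In 12680 cases a wild-type peak overlapped a single mutant peak that overlapped no other wild-type peak, and 10993 of these pairs were narrower in the mutant (86.7%, interval 86.1 to 87.3). The median log2 width ratio was -0.23, or 85.1% of the wild-type width, with quartiles of -0.56 and -0.07. The mutant peak had 50% of the wild-type width or less in 1118 pairs (8.82%), and at least the doubled width in 19. For H3K4me3 the median log2 ratio over 12896 pairs was -0.05, with 63.8% narrower and 0.496% at 50% of the width or less. In the 5 score quintiles the medians for H3K4me2 were between -0.30 and -0.17. Wide peaks had the smaller ratios, with a median log2 ratio of -0.15 for wild-type peaks over 500 to 1000 bp and -0.44 for those over 3000 bp. A further 971 wild-type peaks were broken into several mutant peaks, and these had a median width of 2279 bp and kept a median of 83.4% of it.

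**Figure D2:**
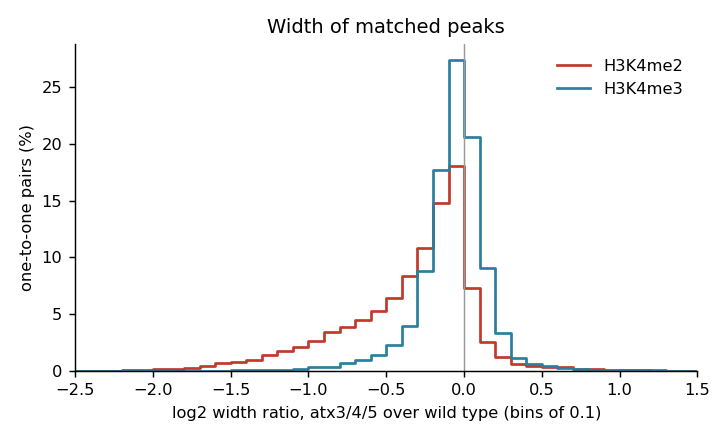
Histogram of the log2 width ratio (x axis, mutant over wild type, bins of 0.1) of matched peaks as percent of pairs (y axis), for H3K4me2 and H3K4me3. The H3K4me2 pairs have a long arm to the left, with 8.82% at 50% of the width or less against 0.496% for H3K4me3.

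Some of the most narrowed peaks of the highest score quintile spanned neighbouring genes. In the 10 with the largest difference the mutant peak was 2125 to 2921 bp shorter and had 14.3% to 42.3% of the wild-type width. The peak over the shared locus of NMNAT, an enzyme of NAD synthesis, and WYR measured 3408 bp in wild type (chr5:22586379-22589786) and 487 bp in the mutant. AT3G01310 had a peak of 3316 bp in wild type and 584 bp in the mutant, and AT3G55410 a peak of 3603 and 1285 bp. The peak over HEMA3, a glutamyl-tRNA reductase gene of tetrapyrrole synthesis, and its neighbour AT2G31240 measured 3651 and 1437 bp, and HEMA3 was left without the mark. RSH3 (AT1G16440) and AT5G59240 beside AT5G59250 were left without it in the same way. Of the genes under these 10 peaks 1 was called in the authors' deposited table, AT5G59250 with 131 FPKM in wild type and 37.2 in the mutant (q = 0.00654). Among broken peaks, that over AT3G51570 and AT3G51560 was in 5 pieces in the mutant with 82.8% of its width left. BSL3, a phosphatase gene of the BSU1 family, held a peak of 5864 bp in wild type and 4 pieces in the mutant. At CHR11, an ISWI-type chromatin remodeler, a peak of 3844 bp was in 4 pieces with 88.5% left.

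In the same quintile 2975 of 3299 pairs were narrower in the mutant (90.2%), and among the others the 5 with the largest difference were wider by 564 to 852 bp. They lay over WAKL4 (1273 and 2125 bp), the lipoxygenase gene LOX3 of jasmonate synthesis (1080 and 1907 bp), AT5G60280 and AT5G60285 (1375 and 2051 bp), the shared locus of LYM1 and UMAMIT19 (1113 and 1719 bp) and AT4G28100 (924 and 1488 bp). RNA of AT5G60280 was called higher, at 1.16 and 5.57 FPKM (q = 0.00654 in the authors' deposited table). LOX3 stood at 10.8 FPKM in wild type and 5.18 in the mutant and was not called in the authors' deposited table.

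Within genes that kept H3K4me2, the share under a peak differed more away from the H3K4me3 end than at it. The files give no strand, so unshared loci of at least 500 bp with a single wild-type H3K4me3 peak near 1 end were turned so that this peak came first, which gave 10047 loci. Among the 7237 of them that kept H3K4me2, the mean share under an H3K4me2 peak was 78.8% in wild type and 67.8% in the mutant over the stretch at the H3K4me3 end. It was 69.8% and 52.9% over the middle stretch and 31.8% and 18.3% over the far stretch, the 3 stretches being equally long. The corresponding H3K4me3 values were 80.5% and 74.8%, 22.3% and 20.1%, and 2.51% and 2.70%. Loci that kept H3K4me2 but had no wild-type H3K4me3 (1859) could not be turned, so their ends cannot be compared with each other. Their middle stretch was under a peak in 69.7% in wild type and 62.6% in the mutant.

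The edges of matched peaks also moved in less on the side near H3K4me3. In 7054 pairs within the turned loci the mutant edge near H3K4me3 lay further in by a median of 42 bp and the far edge by 88 bp. The far edge lay over 200 bp further in for 34.0% of pairs (interval 32.9 to 35.1), and the near edge for 14.9% (interval 14.1 to 15.8). In 4301 pairs (61.0%) the far edge had moved in more than the near edge.

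**Figure D3:**
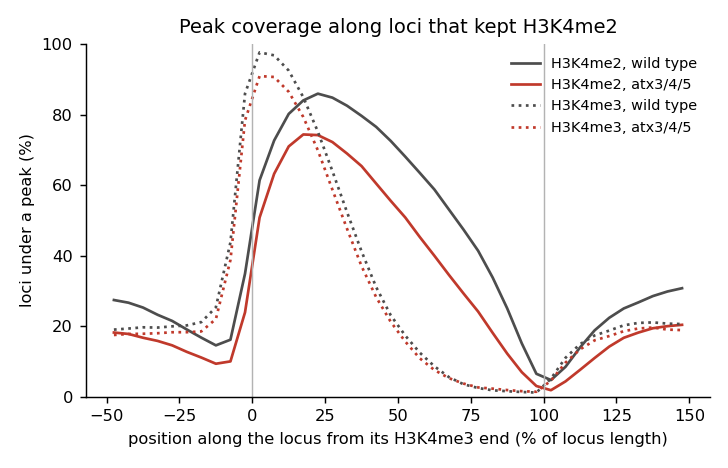
Percent of loci under a peak (y axis) along 7237 loci that kept H3K4me2, from the end with H3K4me3 at 0 to the other end at 100% of locus length (x axis), with flanks. Solid lines are H3K4me2 and dotted lines H3K4me3; the highest point of the H3K4me2 line is 85.9% in wild type and 74.4% in the mutant.

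Absent and gained peaks were narrower than kept ones, with median widths of 812, 652 and 1311.5 bp, and their place in the gene is given beside that difference. Of peaks over exactly 1 unshared gene locus, 51.9% of kept, 60.3% of absent and 82.4% of gained peaks lay wholly inside it. The median share of the locus that a peak covered was 51.6% for kept, 34.3% for absent and 23.1% for gained peaks. The median distance of the peak centre from the nearer end was 34.2%, 29.9% and 30.1% of the locus length. Peaks outside every gene locus were few, with 54 kept (0.383%), 176 absent (2.71%) and 27 gained (1.67%). With a score of at least 200 in both lists the absent ones were 1.42%. On each of the 5 chromosomes the absent share was between 31.0% and 32.1%.

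Counted by gene, 18180 nuclear loci carried H3K4me2 in wild type, and 4054 of them had none in the mutant (22.3%), here called lost. The other 14126 kept the mark, and 11862 of those (84.0%) had a smaller share of the locus covered in the mutant. The median covered share of kept loci was 60.3% in wild type and 44.3% in the mutant. With a score of at least 200 in both lists the lost share was 49.5%. Short loci lost the mark more often, from 53.3% of those up to 1000 bp to 6.39% of those over 5000 bp. Protein-coding loci lost it at 21.9%, tRNA loci at 43.0% (34 of 79) and transcribed pseudogenes at 48.2% (92 of 191). Genes without H3K4me3 in wild type lost it at 48.7%, and those with it at 14.8%. Among loci without H3K4me3 the lost share was between 36.4% and 51.5% in 6 classes of wild-type FPKM from the authors' deposited table. Among loci with H3K4me3 it was 26.2% where the authors' deposited table lists an FPKM of 0, and 12.4% to 18.8% in the other classes.

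The lists and symbol families below were drawn up with earlier results on these samples known, and their counts are set beside the 22.3% of all marked loci. The exact interval of the lost share lay above that value for auxin, MYB, P450, XTH and CLE genes and below it for clock and light genes. The intervals were not adjusted for score, locus length or the number of lists. Over all marked loci the lost share went from 52.2% in the lowest score quintile to 8.25% in the highest. Median wild-type scores were 431, 242, 262, 138 and 151 for these 5 groups in that order, and 446 for clock and light genes. For the other lists and families described it held the value, so their counts do not set them apart from all loci. Flowering time genes lost the mark at 6 of 14 marked loci (interval 17.7 to 71.1%), among them FLC, the repressor that vernalization silences, the floral identity gene LFY, and the floral repressors TEM1 and TEM2. Of 11 marked genes of floral organ and meristem identity 5 lost it (interval 16.7 to 76.6%), including the embryo regulator LEC1, the boundary genes CUC2 and CUC3, and the homeobox gene KNAT6, and all 5 were without wild-type H3K4me3. FLC had a peak of 595 bp, LFY of 650 bp and LEC1 of 808 bp in wild type, and none of these 3 had H3K4me3 in either genotype. TEM1 and TEM2 had H3K4me3 in both genotypes and peaks of 1153 and 1228 bp in wild type.

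Among transcription factor families, MYB genes lost H3K4me2 at 22 of 45 marked loci (interval 33.7 to 64.2%), 17 of these 22 without wild-type H3K4me3, homeobox HB genes at 8 of 28, ERF genes at 5 of 18, NAC genes at 9 of 33, WRKY genes at 8 of 36 and ARF genes at 2 of 13. The 1 marked gene with a bHLH symbol, BHLH100, lost it. MYB34, a regulator of indole glucosinolates, lost a peak of 697 bp and was called lower, at 8.63 and 2.16 FPKM (q = 0.00982 in the authors' deposited table). ERF5, an ethylene response factor, lost a peak of 1062 bp, kept H3K4me3 and was called lower, at 34.4 and 6.43 FPKM (q = 0.00184 in the authors' deposited table). WRKY55 lost a peak of 711 bp and was called higher, at 0.408 and 4.13 FPKM (q = 0.0308 in the authors' deposited table). In the authors' deposited table, 2 of 49 tested MYB genes were called lower and none higher, and 14 of 48 tested WRKY genes higher and none lower, beside 5.36% lower and 4.93% higher over all genes tested.

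Auxin genes lost the mark at 11 of 22 marked loci (interval 28.2 to 71.8%), among them the YUCCA enzyme genes YUC9 and YUC3, the aminotransferase gene TAA1 and the influx carrier gene AUX1. Aux/IAA repressor genes lost it at 5 of 13 and SAUR genes at 3 of 7. Cytokinin genes lost it at 8 of 20 (interval 19.1 to 63.9%), among them IPT5, the response regulator gene ARR3, the receptor gene HK4 and the oxidase gene CKX3. Gibberellin and brassinosteroid genes lost it at 5 of 19, with GA2OX2, GA2OX1, DWF4 and GA3OX2 the highest by score. DWF4, a brassinosteroid synthesis enzyme, had H3K4me3 in wild type only and was called lower, at 6.96 and 1.89 FPKM (q = 0.0158 in the authors' deposited table). IAA13 kept H3K4me3 and was called lower, at 49.4 and 19.0 FPKM (q = 0.0385 in the authors' deposited table). Abscisic acid and cold genes lost the mark at 7 of 30 and jasmonate genes at 4 of 19 (AOC4, JAZ5, MYC3 and JAZ12). CBF1, a cold-response factor, lost a peak of 771 bp, and GOLS3, a galactinol synthase, lost a peak of 1029 bp. Neither was called in the authors' deposited table, with wild-type FPKM of 2.80 and 2.30 and mutant FPKM of 0.0316 and 0.243.

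Genes of XTH enzymes, which cut and rejoin xyloglucan, lost H3K4me2 at 11 of 14 marked loci (interval 49.2 to 95.3%). CLE peptide genes lost it at 6 of 7 (interval 42.1 to 99.6%) and genes of RALF signalling peptides at 1 of 7. XTH8, XTH16 and XTH7 had peaks of 837, 1141 and 993 bp in wild type, and H3K4me3 in wild type only. In the authors' deposited table, 3 of 20 tested XTH genes were called lower and 1 higher, beside 5.36% and 4.93% of all genes tested. CLE12 had H3K4me3 in wild type only and was called lower, at 4.66 and 0.982 FPKM (q = 0.0336 in the authors' deposited table). Expansin genes, which loosen the wall, lost the mark at 4 of 15, among them EXPA5, which was called lower at 185 and 37.1 FPKM (q = 0.00184 in the authors' deposited table). CASP1, CASP2 and CASP4 of the Casparian strip lost it, while ESB1 and GSO1 of the same list kept it. None of these 3 CASP genes exceeded 0.854 FPKM in either genotype in the authors' deposited table. Genes of plasmodesmata-located proteins lost the mark at 3 of 12, with PDLP6 called lower and PDLP5 called higher, at 3.95 and 11.4 FPKM (q = 0.0469 in the authors' deposited table).

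Among growth genes, cell division genes lost the mark at 9 of 27, including the syntaxin gene KNOLLE, the replication helicase gene MCM3 and the Aurora kinase gene AUR1. None of the 27 tested cell division genes was called in the authors' deposited table, beside 5.36% called lower and 4.93% higher over all genes tested. Leaf polarity and growth genes lost it at 5 of 25 (ARGOS, ANT, AS2 and TCP2 by score) and stomatal lineage genes at 2 of 7. EPF1, a peptide that limits stomatal density, lost a peak of 591 bp over the whole locus and was called lower, at 23.7 and 7.63 FPKM (q = 0.0369 in the authors' deposited table). Enzyme and transporter families lay on both sides of the share of all loci, with P450 genes at 49 of 132 (interval 28.9 to 46.0%), glutathione transferase genes at 7 of 16, UGT genes at 7 of 48, NPF and NRT genes at 2 of 8, UMAMIT genes at 2 of 12 and SWEET genes at 1 of 2. GSTU13 lost a peak of 1286 bp and was at 245 and 44.2 FPKM, and GSTU24 lost a peak of 763 bp and was at 2.67 and 10.2 FPKM, both called in the authors' deposited table.

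Clock and light genes lost the mark at 0 of 27 marked loci (interval 0 to 12.8%). Chromatin genes lost it at few loci. H3K4 methyltransferase and COMPASS complex genes, taken as 1 list, lost it at 0 of 12, H3K4 demethylase genes at 1 of 9 and Polycomb genes at 1 of 14. CRK receptor kinase genes lost it at 3 of 36, WAK genes at 1 of 12, PUB ubiquitin ligase genes at 2 of 21, histone genes at 2 of 14, photosystem genes at 1 of 12, senescence genes at 1 of 7 and reference genes at 1 of 9. RLP genes lost it at 10 of 41, ribosomal protein genes at 5 of 23 and LCR genes at 1 of 2. The clock and light peaks covered less of the locus in the mutant at 25 of 27, beside 84.0% of all kept loci. Their median covered share was 72.3% in wild type and 56.4% in the mutant, beside 60.3% and 44.3% for all kept loci. LHY, a MYB factor of the morning loop, had its strongest peak at 3267 bp in wild type and 1583 bp in the mutant, and 65.8% and 28.0% of the TOC1 locus was covered. ATX1, a further H3K4 methyltransferase gene, was covered over 54.5% and 31.6%. ASHH2, which is counted in the methyltransferase list although it is known mainly as an H3K36 methyltransferase gene, was covered over 52.6% and 18.6%. SDG2, the main enzyme for H3K4me3 in leaves, was covered over 57.6% and 55.3%, and its RNA was called higher, at 0.884 and 3.55 FPKM (q = 0.00184 in the authors' deposited table).

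**Figure D4:**
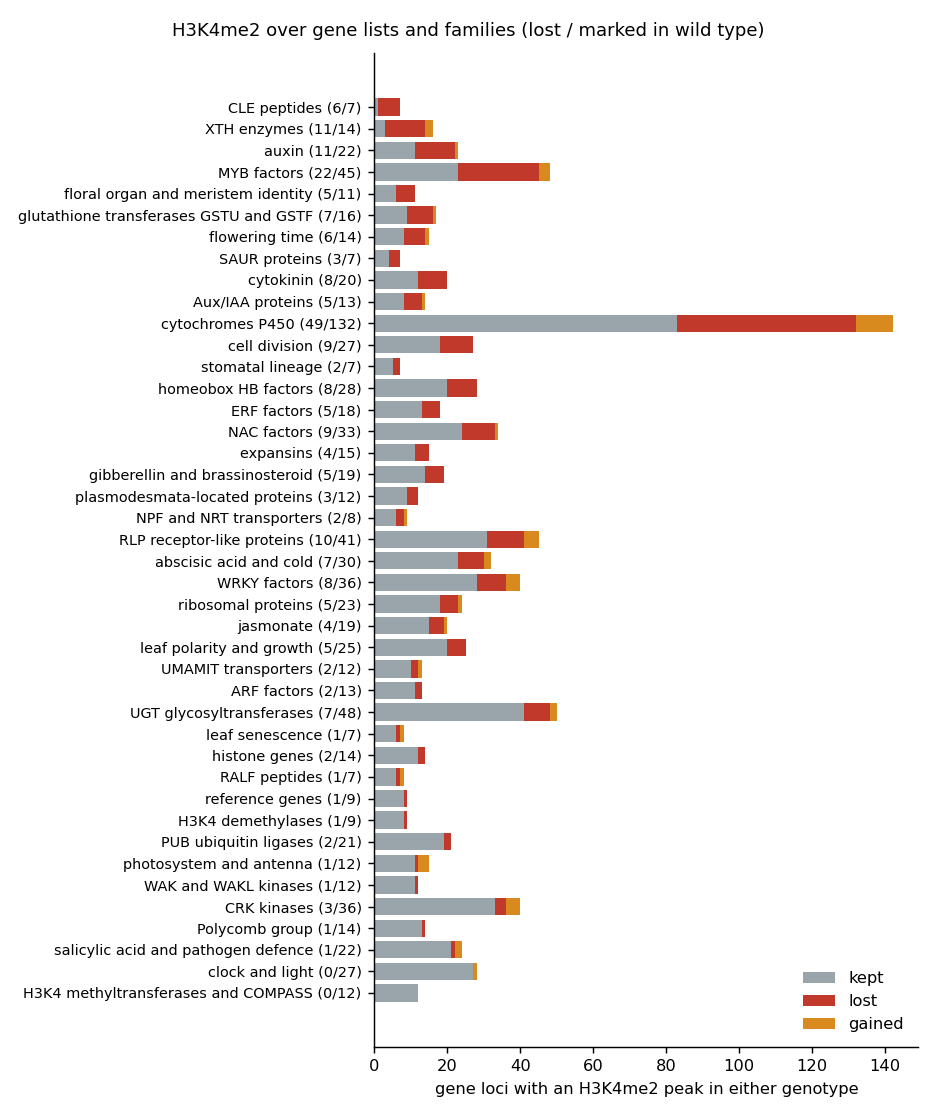
Number of gene loci (x axis) that kept, lost or gained H3K4me2 in atx3/4/5, for lists and symbol families (y axis) with at least 6 loci marked in wild type, sorted by lost share with counts in brackets. CLE and XTH genes have the highest lost shares. The list of clock and light genes and that of H3K4 methyltransferase and COMPASS complex genes have 0 lost.

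Salicylic acid and pathogen defence genes kept H3K4me2 at 21 of 22 marked loci, NIMIN2 being the lost one, and PR1 and SARD1 gained it. Of the 21 kept loci 14 were covered less in the mutant, beside 84.0% of all kept loci. The kept loci named here were all covered more, and they were chosen after their values were seen. Peaks covered 35.8% of PAD3, the last enzyme of camalexin synthesis, in wild type and 95.8% in the mutant. The covered share of WRKY38 was 32.3% and 84.4%, that of PBS3, an enzyme of salicylic acid synthesis, 46.2% and 59.1%, and that of FMO1 0.706% and 20.9%. In the authors' deposited table RNA of 17 of the 27 members was called higher and of none lower, beside 4.93% and 5.36% of all genes tested. PAD3 stood at 0.695 FPKM in wild type and 21.9 in the mutant and was called in the authors' deposited table. Of the 17 genes called higher in the authors' deposited table, 13 had H3K4me2 in both genotypes, beside 69.1% of all genes called higher there.

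Across all genes, those that lost H3K4me2 were called lower in RNA more often than higher. Among 2715 tested genes that lost the mark, 266 were called lower (9.80%, interval 8.70 to 11.0) and 78 higher (2.87%) in the authors' deposited table. Among 12247 tested genes that kept it, 394 were called lower (3.22%) and 644 higher (5.26%) in the authors' deposited table. Genes with no H3K4me2 in either genotype were called lower at 9.40% in the authors' deposited table, close to the lost genes. Of the genes that the authors' deposited table calls lower, 26.2% had lost H3K4me2, beside 2715 of all 18909 genes tested. The lost genes called lower were 6.56% of all loci that lost the mark. In whole leaves a mark or an RNA present in fewer cells cannot be told apart from less of it in each cell. RNA changes also moved with locus length, so lost and kept genes were compared within classes of length. For loci up to 1000 bp 16.0% of lost and 11.9% of kept genes were called lower in the authors' deposited table, and for loci over 3000 to 5000 bp 5.77% and 1.74%.

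The RNA calls also moved with H3K4me3. Among genes with H3K4me3 in wild type only, 101 of 386 tested genes that lost H3K4me2 were called lower (26.2%) and 1 higher in the authors' deposited table. Genes of that kind that kept H3K4me2 were called lower at 12.1%, and those that never had it at 38.2% (52 of 136), in the authors' deposited table. With H3K4me3 in both genotypes the shares called lower were 5.08% for lost, 2.61% for kept and 6.57% for never marked genes in the authors' deposited table. Of the 10 lost genes called lower with the highest wild-type scores, 7 had H3K4me3 in wild type and all 7 lacked it in the mutant. They included AT4G40070 (3.44 and 0.511 FPKM) and AT4G40085 (5.69 and 1.09 FPKM) in the authors' deposited table, and AT4G03010, AT2G29660 and PDLP6. ASPGB1, an asparaginase gene, had no H3K4me3 in either genotype and was at 26.9 and 1.89 FPKM (q = 0.00184 in the authors' deposited table). Its lost peak spanned 1531 bp (chr3:5471642-5473172) and 93.3% of the locus. GH9B8, of glycosyl hydrolase family 9, was at 30.7 and 8.63 FPKM (q = 0.0105 in the authors' deposited table). The 2 lost peaks that met it together covered 15.1% of the locus. The one with the higher score (chr2:14006010-14008358) only met the locus end at 14006017 and also overlapped AT2G33000.

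Some genes lost H3K4me2 and were called higher. NIMIN-2, whose product binds the salicylic acid receptor NPR1, lost a peak of 710 bp that covered the whole locus and kept H3K4me3. It was at 9.96 FPKM in wild type and 49.7 in the mutant (q = 0.00184 in the authors' deposited table). AT5G60800 was at 4.05 and 25.7 FPKM and AT2G44290 at 45.3 and 142 FPKM in the authors' deposited table, both with H3K4me3 in both genotypes. AAT1, an amino acid transporter gene, was at 1.63 and 11.7 FPKM in the authors' deposited table and had H3K4me3 in the mutant only. Of the 10 such genes with the highest scores, 7 had H3K4me3 in the mutant, 3 of them in the mutant only. CRK4 lost a peak of 1146 bp, kept H3K4me3 and was at 9.32 and 68.5 FPKM (q = 0.00184 in the authors' deposited table).

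**Figure D5:**
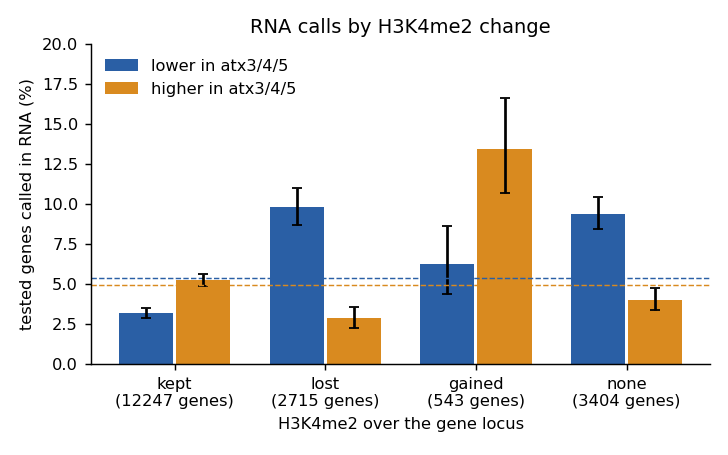
Percent of tested genes called lower or higher in RNA in the authors' deposited table (y axis) for genes that kept, lost, gained or never had an H3K4me2 peak (x axis, number of tested genes in brackets). Bars are shares with exact 95% intervals and dashed lines the shares over all nuclear genes tested; lost genes are called lower at 9.80% and gained genes higher at 13.4%.

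Gained peaks were mostly of low score and short, and genes under them were called both higher and lower in RNA more often than kept genes. Of all mutant peaks 9.73% were gained, from 26.8% in the lowest score quintile of the mutant list to 0.721% in the highest. The gained share was 17.5% with the wild-type list shortened to the length of the mutant list, 27.3% when 50% of both peaks had to overlap and 6.37% when a peak within 500 bp counted. Their median width was 652 bp. Of the 15098 nuclear loci without H3K4me2 in wild type 759 gained it (5.03%). Of 543 tested genes among them 73 were called higher (13.4%, interval 10.7 to 16.6) and 34 lower (6.26%) in the authors' deposited table. The 73 genes were 9.62% of the loci that gained the mark. They were 7.83% of all genes that the authors' deposited table calls higher, beside 543 gained genes among the 18909 tested. Where neither genotype had H3K4me3, 29 of 80 gained genes were called higher (36.3%), beside 6.98% of genes never marked with H3K4me2, in the authors' deposited table. In the authors' deposited table, 5 of 393 gained genes with H3K4me3 in both genotypes were called higher (1.27%) and 30 lower (7.63%). Kept genes of that kind were called higher at 4.79% and lower at 2.61% there.

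Defence and senescence genes were among the gained genes called higher. PR1, a pathogenesis-related protein gene, had no H3K4me2 in wild type and a peak of 754 bp over 89.5% of the locus in the mutant, beside 19.4 and 1634 FPKM (q = 0.00184 in the authors' deposited table). SAG13, a senescence-associated gene, gained a peak of 1164 bp over 70.8% of its locus, with 14.2 and 283 FPKM in the authors' deposited table. BIP3, an endoplasmic reticulum chaperone gene, was covered over 88.9% of the locus in the mutant, with 0.480 and 15.8 FPKM in the authors' deposited table. NATA1, an acetyltransferase gene, gained a peak of 897 bp over 87.9% of the locus, and AT3G28580 a peak of 1512 bp over 87.2%. Among receptor genes, CRK37, CRK39, RLP7, RLP39 and RLP50 gained the mark and were called higher in the authors' deposited table. RLP28 and CRK32 gained it and were not called. Kept genes of these families were often called higher there too, at 10 of 29 tested CRK genes and 10 of 29 tested RLP genes, beside 4.93% of all genes tested. CRK41 gained it too and was called lower, at 21.6 and 7.28 FPKM (q = 0.0291 in the authors' deposited table). CYP71A12 and CYP71A13, enzymes of camalexin synthesis, gained peaks of 497 and 502 bp without H3K4me3 in either genotype. Their FPKM were 1.04 and 0.820 in wild type and 20.6 and 9.11 in the mutant (both q = 0.00184 in the authors' deposited table). WRKY50 and WRKY51 gained peaks of 1020 and 360 bp, had H3K4me3 in the mutant only and were called higher in the authors' deposited table. VSP1, a vegetative storage protein gene of the jasmonate response, gained a peak of 511 bp without H3K4me3, at 1.55 and 38.3 FPKM (q = 0.00184 in the authors' deposited table). Of the 10 gained genes called higher with the highest mutant scores, 8 had H3K4me3 in the mutant only.

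H3K4me2 was also gained over genes whose RNA was not called higher. The antenna genes LHCA1 and LHCA3 gained peaks of 894 and 939 bp, over 55.9% and 56.3% of their loci. Their FPKM were 9250 and 7235 in wild type and 3127 and 2416 in the mutant in the authors' deposited table. PSBP-1, an oxygen-evolving complex gene, gained a peak of 607 bp at 2370 and 1202 FPKM in the authors' deposited table, and none of the 3 was called. SWEET17 gained a peak of 755 bp and was called lower, at 69.0 and 22.9 FPKM (q = 0.0180 in the authors' deposited table). MAF2, KIN2, PIF5 and WRKY11 gained peaks and were not called there. The highest-scoring gained peaks were of another kind, since 5 of the top 10 lay in an rRNA region of chromosome 3 and 2 at the start of chromosome 2, where near-identical copies may share reads. Outside these regions the highest were a peak of 395 bp over AT5G10340, a peak of 1421 bp over the receptor-like protein gene RLP20 (chr2:10826669-10828089), and that over AT3G28580. RLP20 already had H3K4me2 elsewhere in the locus, and its RNA was called higher, at 0.272 and 5.54 FPKM (q = 0.00184 in the authors' deposited table).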

How the data were processed

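Peak lists were used as deposited, 1 ChIP library per genotype and mark. Bowtie 1.0.1, MACS 1.4.2, TopHat2 2.0.10, Cufflinks 2.2.1 and the TAIR10 build are named in the submitters' processing notes. The score of a peak is the authors' deposited value, never under 50, and served only for ordering and filtering within its own list. FPKM values and q-values, with the p-values behind them, are those deposited by the authors, 1 value per genotype from 2 libraries. A gene was called at status OK and q under 0.05, and its direction is that of the FPKM ratio without a pseudocount.

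Overlaps of at least 1 bp were computed in Python, in the authors' coordinates, printed counting from 1. Near that threshold, 59 kept peaks overlapped by under 100 bp, and 240 absent peaks had a mutant peak within 100 bp. The overlap classes were tested on simulated data, where 100% of 20585 peaks were recovered. Intervals are Clopper-Pearson.

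Gene names and types come from a RefSeq table of TAIR10.1, from which no coordinates were taken and to which 32810 of 33557 identifiers could be matched. Families were formed from gene symbols. Of the list symbols 445 were matched and 1 was not, and 1 family and 1 gene are not reported here. Overlapping genes share 1 locus (4216 nuclear genes), so a peak there counts for each of them. Whether RNA was counted by strand is not stated, so overlapping genes are uncertain. Named genes are those under the 15 highest-scoring absent peaks over a locus, and the 10 lost genes called lower and 10 called higher with the highest scores. Also named are genes under the 10 most narrowed and 5 most widened peaks of the highest score quintile. The 10 highest-scoring gained peaks and the 5 most broken peaks were added. From each list or family up to 4 lost genes are named, but only some of the gained genes. Kept genes of the clock, defence and methyltransferase lists and gained genes beyond the 10 highest-scoring peaks were chosen after their values were seen. The comparison and the lists were chosen with earlier results of these data known. Score floors, other overlap rules and a shortened wild-type list were tried as alternatives.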

Additional observations from a re-analysis of the deposited data

How the results depend on the processing

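No paired analysis was possible because the RNA table gives 1 value per genotype and each ChIP group holds 1 library, so no replicate could be left out either. Of 39 values under other settings 8 stayed within the counting interval of the reported value. The share of covered bases has no such interval, so its values could only fall outside. Only the width ratio has a direction that could change, and it stayed negative under each setting. The share of absent wild-type peaks (31.5%) was 40.2% with a score of at least 100 in both lists, 52.6% with at least 200, 23.6% with the wild-type list shortened to the length of the mutant list, 40.6% and 41.2% with an overlap of 50% of the peak itself or of both peaks, and 25.2% when a peak within 500 bp counted. In the same order the gained share (9.73%) was 8.14%, 8.11%, 17.5%, 10.6%, 27.3% and 6.37%. With score floors of 100 and 200 and the shortened list, the covered bases of the mutant list came to 58.3%, 47.9% and 75.5% of those of wild type (66.1% as deposited). The lost share of loci (22.3%) came to 33.9%, 49.5% and 17.6%, and to 24.9% without shared loci. The share of absent peaks over H3K4me3 (35.5%) came to 49.1%, 63.8% and 39.1%, beside 82.2%, 90.3% and 75.6% of kept peaks, and to 27.0% with an overlap of 50%. The median log2 width ratio (-0.23) was -0.19 and -0.15 with the score floors and -0.18 in the highest quintile. The absent peaks outside loci (2.71%) were 2.09% and 1.42% with the floors and 3.22% with a locus overlap of 200 bp. Among settings added after the data were seen, a score floor of 100 gave 6.65% of lost and 2.88% of kept genes called lower (9.80% and 3.22% as reported) and 10.6% of gained genes called higher (13.4%). The cause of these shifts was not tested.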
